A study of Mus musculus with 12 samples.

Results

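The genes described here are those of sterol and fatty acid synthesis that the SREBP transcription factors are known to control, followed in cultured mouse cardiac fibroblasts. The set was listed by gene symbol, with earlier results of these data known. It lists 34 genes, of which 32 were measured among 19938 genes on the arrays. The sterol branch has 19 measured genes of 20 listed, the fatty acid branch 10 of 11, and 3 further genes are regulators. Acat2 had no probe set under its symbol, and Acsl3 lay only on a probe set shared with another gene. Where a gene had several probe sets, the brightest stood for it.

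The cells were cardiac colony-forming fibroblasts, sorted from hearts as positive for SCA1 and PDGFRα and negative for the endothelial protein CD31, and grown as unpassaged bulk cultures. The donors of all groups were male C57BL/6 mice aged 12 weeks. The 4 groups, with 3 arrays each, were untreated cells, cells given PDGF-AB at 50 ng/ml, cells given AG1296 at 1 uM and cells given AG1296 at 10 uM. PDGF-AB is a ligand of the PDGF receptors, and AG1296 is a tyrosine kinase inhibitor of those receptors that also acts on c-Kit. How long the cells were treated, in which vehicle, and whether arrays came from separate cultures is not stated in the sources used, so p-values measure the spread between these arrays, which may be technical. The untreated arrays stand for every control, and an effect of a vehicle cannot be told apart from that of a treatment.

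Cholesterol is built from acetyl-CoA through mevalonate, the isoprenoids, squalene and lanosterol, and fatty acids are built from acetyl-CoA through malonyl-CoA, then elongated and desaturated. SREBP-2, encoded by Srebf2, mainly drives the sterol enzymes, and SREBP-1, encoded by Srebf1, mainly drives the fatty acid enzymes. Both are made as membrane proteins of the endoplasmic reticulum and are held there by SCAP and the INSIG proteins while sterol is plentiful. When sterol falls they reach the Golgi, are cut by proteases, and enter the nucleus, where they bind beside the factors NF-Y and Sp1. Fibroblasts use both products for membranes.

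Promoter sequence was available for 25 of the 32 measured genes, from RefSeq on the mouse build GRCm38.p6, and the 250 bases before each start were searched on both strands. The letters searched were CCAAT, the core bound by NF-Y, TCACNCCAC, a core of the sterol response element, and GGGCGG, bound by Sp1; each was counted separately, and matches may overlap. CCAAT was found in at least 1 window of 15 of the 15 sterol genes with sequence, and in 15 of their 18 windows (83.3%). It was found in 33.8% of all 32851 windows of this length, and in 3 of 8 windows (37.5%) of the fatty acid branch. GGGCGG was in 83.3% of the sterol windows, in 37.5% of those of the fatty acid branch and in 32.7% of all. TCACNCCAC was in 1 sterol window, that of Hmgcs1, and in 1.05% of all windows. The 4 windows below belong to genes that carry the results: 3 sterol genes and, for contrast, the desaturase gene Fads2 of the fatty acid branch. They lie at chr13:119690101-119690350 (plus strand), chrX:72918271-72918520 (plus strand), chr5:28071162-28071411 (plus strand) and chr19:10101504-10101753 (minus strand), and each runs 5′ to 3′ toward the gene. Capitals mark CCAAT, read as ATTGG where it lies on the other strand, and in Hmgcs1 also the TCACNCCAC match, whose first base is 137 bases before the start.
Hmgcs1: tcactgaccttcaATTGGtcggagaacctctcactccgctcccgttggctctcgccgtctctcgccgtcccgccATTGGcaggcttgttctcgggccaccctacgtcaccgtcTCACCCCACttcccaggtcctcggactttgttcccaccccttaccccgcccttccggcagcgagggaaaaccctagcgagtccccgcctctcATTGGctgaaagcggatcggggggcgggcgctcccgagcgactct
Nsdhl: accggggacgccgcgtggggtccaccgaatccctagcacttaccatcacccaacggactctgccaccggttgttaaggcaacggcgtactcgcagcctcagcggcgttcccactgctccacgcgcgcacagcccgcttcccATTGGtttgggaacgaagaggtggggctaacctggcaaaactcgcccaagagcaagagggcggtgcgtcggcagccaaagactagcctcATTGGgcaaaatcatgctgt
Insig1: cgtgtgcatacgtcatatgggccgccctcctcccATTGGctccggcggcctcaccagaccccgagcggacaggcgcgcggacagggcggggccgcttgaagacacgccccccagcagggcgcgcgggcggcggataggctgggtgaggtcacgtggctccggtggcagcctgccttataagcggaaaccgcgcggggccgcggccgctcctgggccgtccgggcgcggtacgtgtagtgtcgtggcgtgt
Fads2: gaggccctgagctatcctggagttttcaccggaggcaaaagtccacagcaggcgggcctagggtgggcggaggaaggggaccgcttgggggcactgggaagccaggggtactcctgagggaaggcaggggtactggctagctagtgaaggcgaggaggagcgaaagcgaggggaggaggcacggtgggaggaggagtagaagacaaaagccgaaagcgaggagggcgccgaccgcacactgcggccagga
The Fads2 window held no CCAAT and no TCACNCCAC. These matches describe the letters in the windows only.

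The values are log2 expression. Array medians lay between 4.02 and 4.13, and the group means of all 32 genes lay above them, from 5.05 to 9.96. Arrays of the same group correlated at 0.992 to 0.996 over all genes. A gene was called when its Benjamini-Hochberg adjusted p over all 19938 genes was under 0.05 in limma. Over the 4 groups, the limma F test called 6 of the 32 genes, against 997 genes or 5.00% of all. The 6 were Hmgcs1, Fdps, Nsdhl and Insig1 of the sterol branch and Scd2 and Fads2 of the fatty acid branch. No regulator passed. The count was 3 without AG1296 1 uM replicate 2 or AG1296 10 uM replicate 1. In single comparisons 10 of the 32 genes were called in at least 1 of the 6, 6 of the sterol and 4 of the fatty acid branch, against 7.01% of all genes.

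Sterol genes lay low at AG1296 1 uM and high at 10 uM. Of the 19 measured, 13 had their lowest group mean at 1 uM and 14 their highest at 10 uM. In 13 the untreated mean lay between those of the doses. These orders were not counted over all genes, so how common they are there is not known. Averaged over the branch and set against the untreated mean, the 3 arrays at 1 uM stood at -0.18, -0.20 and -0.23 on the log2 scale. Those at 10 uM stood at 0.15, 0.19 and 0.02, those with PDGF-AB at -0.11, -0.08 and -0.07, and the untreated arrays between -0.04 and 0.02. The array at 0.02 is AG1296 10 uM replicate 3, which lay within the untreated range, while the 1 uM and PDGF-AB arrays all lay below that range.

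**Figure D1:**
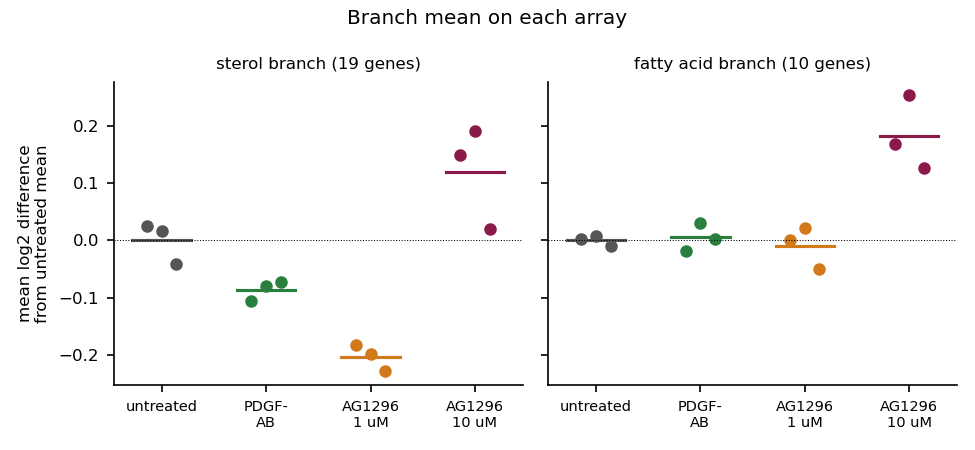
Mean log2 difference from the untreated group mean for the sterol branch (19 genes, left) and the fatty acid branch (10 genes, right); points are arrays, bars are group means, and the dotted line is 0. The sterol arrays at AG1296 1 uM lie at -0.23 to -0.18, whereas the fatty acid arrays of that group lie at -0.05 to 0.02; at 10 uM the fatty acid arrays lie at 0.13 to 0.25.

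Hmgcs1 encodes the synthase that makes HMG-CoA, the precursor of mevalonate. It read 7.92, 7.91 and 7.83 in untreated cells, 7.84, 7.68 and 7.89 with PDGF-AB, 7.47, 7.37 and 7.35 at 1 uM and 8.01, 8.10 and 7.92 at 10 uM. The 1 uM arrays lay below all others, while PDGF-AB overlapped with untreated. It fell by 0.49 ± 0.09 (SE) on the log2 scale at 1 uM against untreated (limma, adjusted p = 0.00581). This call held under each of the 20 alternatives tried (adjusted p up to 0.0313). Hmgcs1 was higher at 10 uM than at 1 uM by 0.61 ± 0.09 (adjusted p = 0.00822), and its difference between 10 uM and untreated, 0.12 ± 0.09, did not pass (adjusted p = 0.684).

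Nsdhl, a dehydrogenase that takes part in removing the methyl groups of lanosterol, read 6.78, 6.75 and 6.78 in untreated cells and 6.35, 6.29 and 6.36 at 1 uM. At 10 uM it read 6.93, 6.99 and 6.62, so that group spread to both sides of the untreated arrays, and with PDGF-AB 6.58, 6.70 and 6.60. Nsdhl fell by 0.43 ± 0.10 at 1 uM (adjusted p = 0.0273). That call ended without any 1 of the 3 untreated or 3 AG1296 1 uM arrays (adjusted p 0.0686 to 0.103). Its difference between the doses, 0.51 ± 0.10, passed narrowly (adjusted p = 0.0459).

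Fdps, which makes farnesyl diphosphate, the last intermediate shared with the other isoprenoids, read 7.80, 7.55 and 7.49 in untreated cells and 7.38, 7.16 and 7.24 at 1 uM. At 10 uM it read 7.77, 7.82 and 7.79, above all PDGF-AB arrays, which read 7.46, 7.55 and 7.51. The difference between doses was 0.53 ± 0.10 (adjusted p = 0.0346). Against untreated, the 1 uM value of -0.35 ± 0.10 did not pass (adjusted p = 0.0704).

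Insig1, the feedback protein that retains SCAP and is itself an SREBP target, read 8.83, 8.93 and 8.74 in untreated cells. It read 8.52, 8.61 and 8.56 with PDGF-AB, 8.49, 8.29 and 8.57 at 1 uM and 9.20, 8.94 and 8.84 at 10 uM. Both the PDGF-AB and the 1 uM arrays lay below every untreated array. Neither difference passed, at -0.27 ± 0.11 with PDGF-AB (adjusted p = 0.493) and -0.38 ± 0.11 at 1 uM (adjusted p = 0.0821). Insig1 was lower with PDGF-AB than at 10 uM, by -0.43 ± 0.11 (adjusted p = 0.044). That call ended without any 1 of 9 arrays, which were all untreated and PDGF-AB arrays, AG1296 10 uM replicates 1 and 2 and AG1296 1 uM replicate 1 (adjusted p 0.055 to 0.181).

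**Figure D2:**
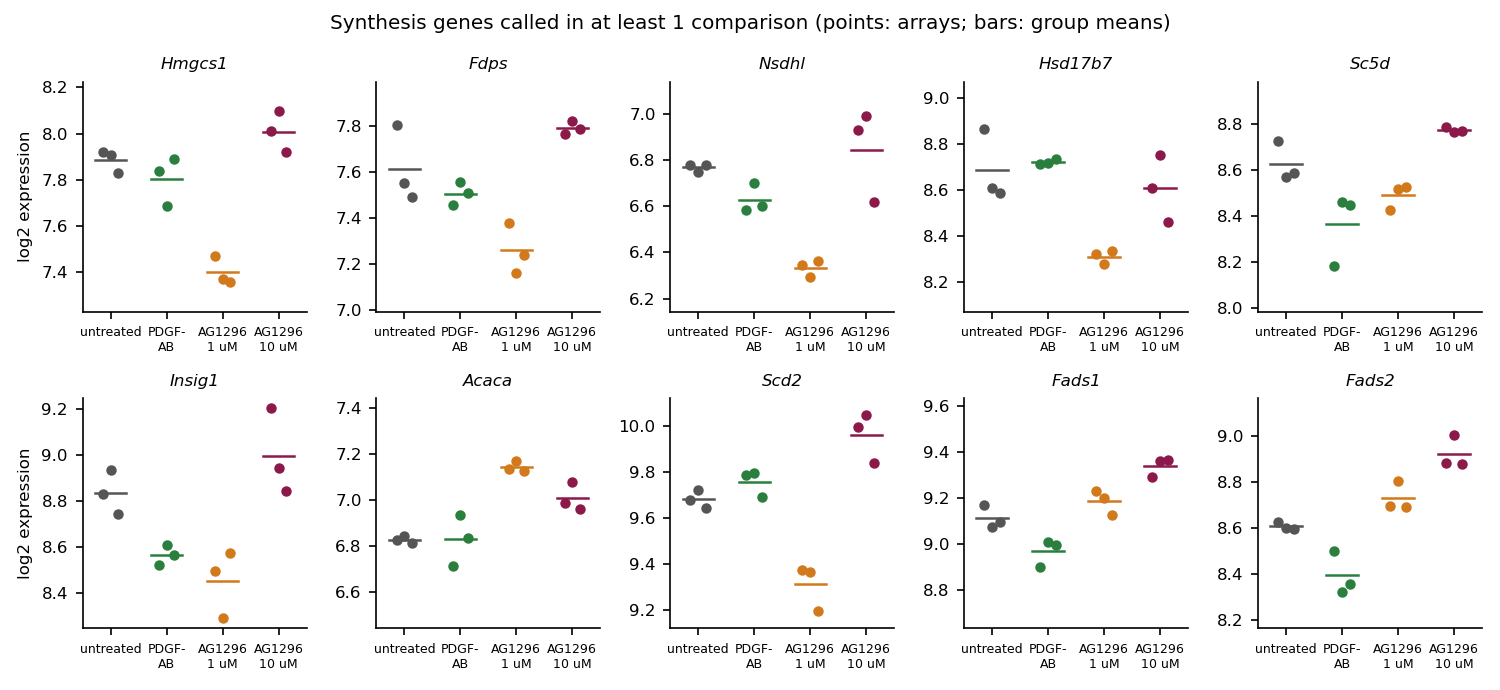
Log2 expression of the 10 genes called in at least 1 comparison, by group; points are the 3 arrays of a group in replicate order and bars are group means, and each panel has its own range of at least 1 log2 unit. Hmgcs1, Nsdhl and Scd2 are lowest at AG1296 1 uM, while Acaca is highest there and Fads2 is lowest with PDGF-AB.

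At AG1296 1 uM against untreated, 2 of 19 sterol genes fell, Hmgcs1 and Nsdhl, and 0 rose. Over all genes 1.33% were called lower and 1.88% higher. The median over the branch was -0.21, with 17 genes below 0, while the median of all genes was -0.01. In 10 of the 19 (52.6%) the 1 uM arrays all lay below the untreated ones, which held for 10.2% of all genes. Beside Hmgcs1 and Insig1 these were Pmvk, Mvd and Fdps, which follow mevalonate, Lss, which closes the sterol rings, and Msmo1, Nsdhl, Hsd17b7 and Sc5d of the later steps. Msmo1, the methylsterol oxidase, read 9.70, 9.77 and 9.69 untreated and 9.42, 9.63 and 9.44 at 1 uM, a difference of -0.22 ± 0.10 (adjusted p = 0.346). Dhcr7, which makes cholesterol from its last precursor, stood at 0.20 ± 0.11 (adjusted p = 0.492), and Tm7sf2, a sterol reductase, at 0.05 ± 0.10 (adjusted p = 0.919). Over both branches 3 genes were called, and 1 when any single untreated or AG1296 1 uM array was left out. With dim genes left out of the test, Mvd, Fdps, Hsd17b7 and Insig1 were called too.

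At AG1296 10 uM against untreated, no sterol gene passed in limma, and 5 had an unadjusted p under 0.05. They were Sqle, the epoxidase that commits squalene to sterols, Mvk, Dhcr7, Tm7sf2 and the sterol carrier Stard4. Over all genes 1.88% passed and 11.4% had an unadjusted p under 0.05. The branch median was 0.15 with 15 genes above 0, and all genes had a median of 0.01. Sqle read 7.08, 7.18 and 6.92 untreated and 7.38, 7.51 and 7.28 at 10 uM. These arrays did not overlap, and the difference was 0.33 ± 0.10 (adjusted p = 0.177). Groups lay apart upward in 5 of 19 (26.3%), against 9.78% of all genes.

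**Figure D3:**
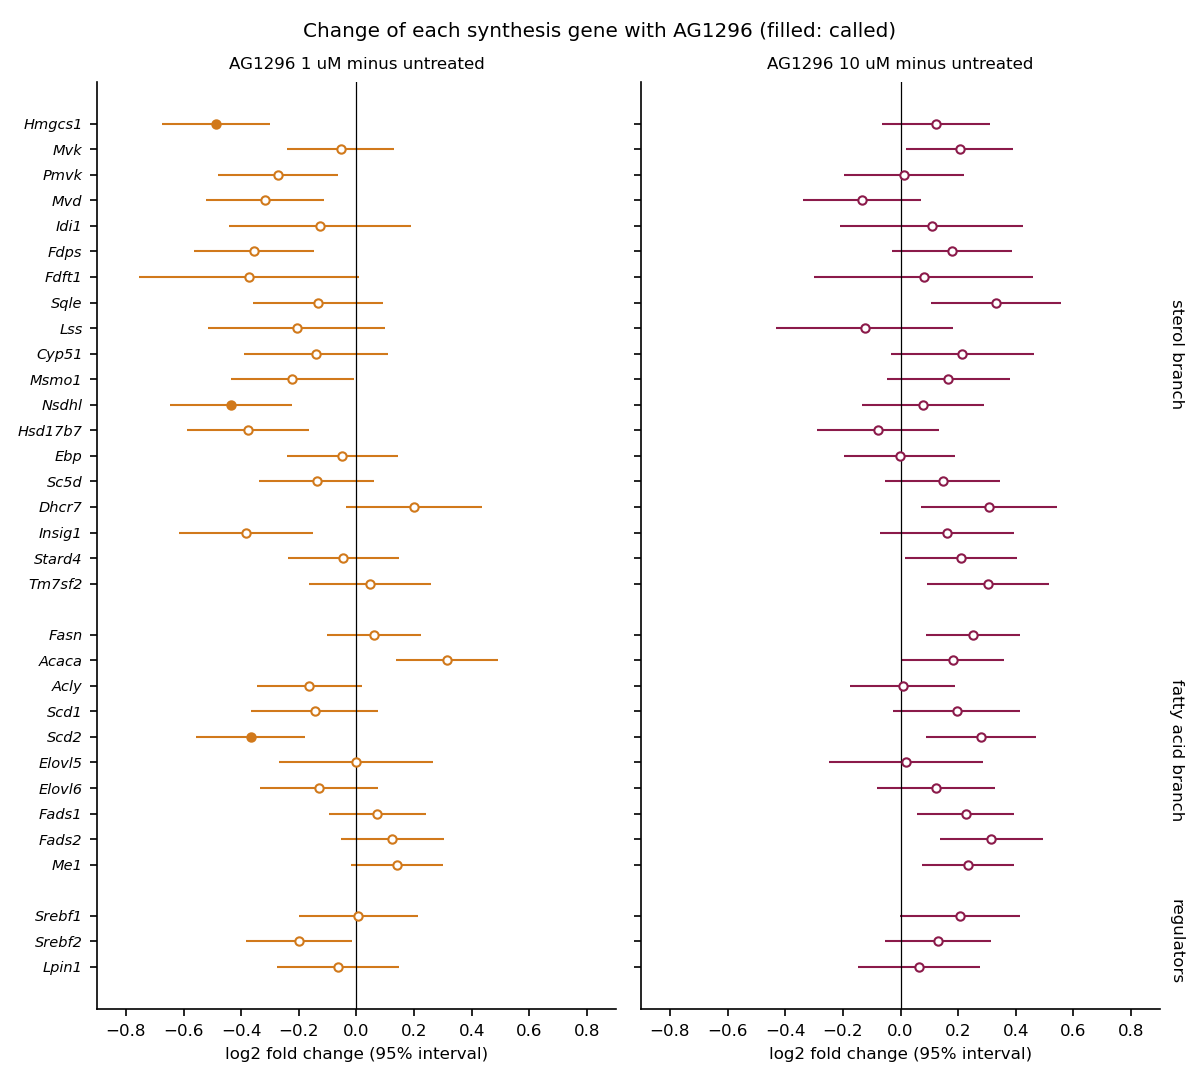
Log2 fold change of the 32 measured genes at AG1296 1 uM (left) and 10 uM (right) against untreated, in pathway order within each branch; points are limma estimates, bars are 95% intervals and filled points are called. Hmgcs1, Nsdhl and Scd2 are filled at 1 uM; no point is filled at 10 uM, where the 10 fatty acid genes all lie above 0.

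Between the doses, all 19 measured sterol genes had a higher mean at 10 uM than at 1 uM. The differences ran from 0.05 for Ebp, the sterol isomerase, to 0.61 for Hmgcs1, with a median of 0.28 against 0.02 for all genes, of which 55.1% lay above 0. Of the 19, 3 passed as higher (Hmgcs1, Fdps and Nsdhl) and 0 as lower, while 0.196% of all genes passed as higher. The arrays lay apart upward in 14 of 19 (73.7%), against 8.88% of all genes. Sqle (0.46 ± 0.10, adjusted p = 0.102) and Insig1 (0.54 ± 0.11, adjusted p = 0.0548) had larger differences than the branch median and did not pass. This comparison and that of 1 uM with untreated share the 1 uM arrays, so they are not independent of each other. Without AG1296 10 uM replicate 1 no gene of either branch passed, and Hmgcs1 then had an adjusted p of 0.055 and Scd2 of 0.0522. Hmgcs1 also lost its call without AG1296 1 uM replicate 2 (0.0579). Fdps lost its call without any AG1296 array, untreated replicate 2 or PDGF-AB replicates 2 or 3 (0.0517 to 0.174), and Nsdhl without any array but AG1296 10 uM replicate 3 (0.0503 to 0.192).

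**Figure D4:**
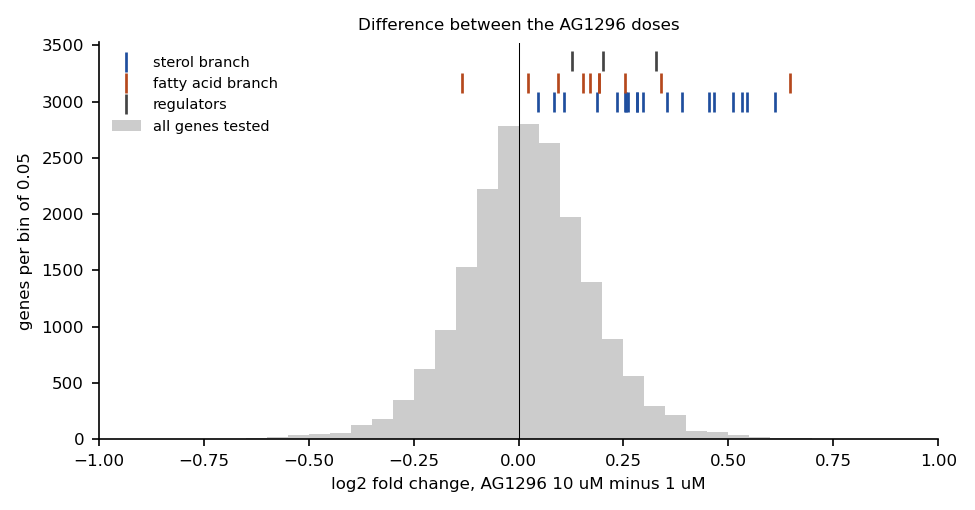
Distribution over all 19938 genes of the log2 difference between AG1296 10 uM and 1 uM (grey bars, bins of 0.05; the few genes beyond 1 on either side are not drawn), with each measured gene of the set as a tick above. The 19 sterol ticks all lie to the right of 0, and the 1 fatty acid tick to the left of 0 is Acaca.

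With PDGF-AB against untreated, no gene of the set passed in limma, where 0.331% of all genes did. An unadjusted p under 0.05 was seen for 3 sterol genes (Msmo1, Sc5d and Insig1), 1 fatty acid gene (Fads2) and 1 regulator (Srebf1), and for 8.55% of all genes. The sterol median was -0.08, with 15 of 19 below 0, and all genes had a median of 0.01. With 1 array left out the sterol median ranged from -0.11 without untreated replicate 3 to -0.05 without untreated replicate 2. Msmo1, Nsdhl, Sc5d and Insig1 had all PDGF-AB arrays below the untreated ones (21.1% of the branch), which held for 6.61% of all genes.

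Sc5d, the desaturase that introduces a double bond in the late sterols, separated PDGF-AB from the high dose of the inhibitor. It read 8.73, 8.57 and 8.58 untreated, 8.18, 8.46 and 8.45 with PDGF-AB, 8.43, 8.52 and 8.52 at 1 uM and 8.78, 8.76 and 8.77 at 10 uM. All PDGF-AB arrays lay below all 10 uM arrays, a difference of -0.41 ± 0.09 (adjusted p = 0.0256). The call ended without PDGF-AB replicate 1 or any 10 uM array (adjusted p 0.0709 to 0.0886). In that comparison 2 sterol genes, Sc5d and Insig1, passed as lower and 0 as higher, while 3.42% of all genes passed in either direction. The branch median was -0.22, and 10 of 19 (52.6%) lay apart downward against 9.59% of all genes.

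Against AG1296 1 uM, PDGF-AB gave 2 sterol genes as higher, Hmgcs1 and Hsd17b7, and 0 as lower, where 2.28% and 2.93% of all genes passed. Hsd17b7, a ketosteroid reductase of the demethylation steps, read 8.71, 8.72 and 8.74 with PDGF-AB and 8.32, 8.28 and 8.33 at 1 uM. These groups were tight and far apart, with a difference of 0.41 ± 0.10 (adjusted p = 0.0257). Its untreated arrays read 8.86, 8.61 and 8.59 and its 10 uM arrays 8.61, 8.75 and 8.46. Hmgcs1 differed by 0.41 ± 0.09 (adjusted p = 0.013). Without any 1 of the 6 arrays compared the Hsd17b7 call ended (adjusted p 0.0613 to 0.0957). That of Hmgcs1 ended without PDGF-AB replicate 3 or AG1296 1 uM replicates 2 or 3 (0.0535 to 0.0599). The branch median was 0.09, and 6 of 19 (31.6%) lay apart upward against 11.4% of all genes.

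The other sterol genes varied less or were less even. Idi1, the isomerase of the isoprene unit, spread from 6.74 to 7.26 among the 1 uM arrays alone, and Fdft1, which makes squalene, from 6.47 to 7.12. Ebp had group means between 6.96 and 7.01. Cyp51, which demethylates lanosterol, had means of 7.03 untreated, 6.94 with PDGF-AB, 6.89 at 1 uM and 7.24 at 10 uM, and Stard4 means of 6.42, 6.47, 6.37 and 6.63 in the same order. None of these 5 was called in any comparison. Idi1 and Fdft1 each had another probe set, which gave differences between doses of 0.28 and 0.31 beside 0.23 and 0.45 for the brightest.

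Fatty acid genes did not share the low values at 1 uM as a branch. Averaged over the 10 genes, the 1 uM arrays stood at 0.00, 0.02 and -0.05 against the untreated mean, the PDGF-AB arrays at -0.02, 0.03 and 0.00, and the 10 uM arrays at 0.17, 0.25 and 0.13. The 10 uM arrays all lay above the others, and AG1296 1 uM replicate 3, at -0.05, lay below every untreated and PDGF-AB array. At 1 uM Scd2 fell, while Acaca stood at 0.31 ± 0.08 and did not pass (adjusted p = 0.0574). No test compared the branches with each other.

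Scd2 encodes a stearoyl-CoA desaturase, which makes monounsaturated fatty acids. It read 9.68, 9.72 and 9.64 untreated, 9.79, 9.80 and 9.69 with PDGF-AB, 9.37, 9.37 and 9.20 at 1 uM and 10.00, 10.04 and 9.84 at 10 uM. The 1 uM arrays lay below all others and the 10 uM arrays above all others. Scd2 fell by 0.37 ± 0.09 at 1 uM (adjusted p = 0.0378), was higher at 10 uM than at 1 uM by 0.65 ± 0.09 (adjusted p = 0.00724) and was higher with PDGF-AB than at 1 uM by 0.44 ± 0.09 (adjusted p = 0.00756). The PDGF-AB call held under all 20 alternatives (up to 0.0417). The fall against untreated was lost without any untreated or 1 uM array and without AG1296 10 uM replicate 1 (0.0562 to 0.148), in a fit of only the 6 arrays compared (0.0749) and after median centring (0.0883). Its paralog Scd1 read 7.53, 7.49 and 7.48 untreated, 7.62, 7.85 and 7.63 with PDGF-AB, 7.24, 7.45 and 7.38 at 1 uM and 7.66, 7.87 and 7.56 at 10 uM. The Scd1 arrays at 1 uM lay below all others, and those with PDGF-AB lay above untreated and overlapped with 10 uM. No comparison of Scd1 passed, with 0.34 ± 0.10 between the doses (adjusted p = 0.259). PDGF-AB against 1 uM gave 0.34 ± 0.10 (adjusted p = 0.0782), which passed with dim genes left out, quantile normalization, a variance trend on intensity or the replicate number as a block. Scd1 and Scd2 are similar in sequence, and how far probes of one read the other was not tested.

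Fads2 and Fads1, the desaturases of polyunsaturated fatty acids, were lowest with PDGF-AB and highest at 10 uM. Fads2 read 8.63, 8.60 and 8.59 untreated, 8.50, 8.32 and 8.36 with PDGF-AB, 8.70, 8.80 and 8.69 at 1 uM and 8.88, 9.01 and 8.88 at 10 uM. The 4 groups did not overlap with one another, in the order PDGF-AB, untreated, 1 uM and 10 uM. Fads2 was lower with PDGF-AB than at 10 uM by -0.53 ± 0.08 (adjusted p = 0.00195), under all 20 alternatives (up to 0.027), and lower than at 1 uM by -0.34 ± 0.08 (adjusted p = 0.031). Against untreated it stood at -0.21 ± 0.08 with PDGF-AB (adjusted p = 0.488) and 0.32 ± 0.08 at 10 uM (adjusted p = 0.0842), neither of which passed. Fads1 read 9.17, 9.07 and 9.10 untreated, 8.90, 9.01 and 9.00 with PDGF-AB, 9.23, 9.20 and 9.13 at 1 uM and 9.29, 9.36 and 9.37 at 10 uM. It was lower with PDGF-AB than at 10 uM by -0.37 ± 0.08 (adjusted p = 0.0164). That call ended without PDGF-AB replicate 1 or AG1296 10 uM replicates 2 or 3 (0.0546 to 0.0672). The Fads2 call against 1 uM ended without PDGF-AB replicates 2 or 3 or any 1 uM array (0.0613 to 0.134).

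Acaca, the carboxylase that makes malonyl-CoA, read 6.83, 6.85 and 6.82 untreated, 6.72, 6.94 and 6.84 with PDGF-AB, 7.14, 7.17 and 7.13 at 1 uM and 6.99, 7.08 and 6.96 at 10 uM. Both AG1296 groups lay above the untreated one, and 1 uM above 10 uM. It was lower with PDGF-AB than at 1 uM by -0.31 ± 0.08 (adjusted p = 0.0416). That call did not hold for the mean of its 2 probe sets (adjusted p = 0.23), nor without any single array other than PDGF-AB replicate 2 and AG1296 10 uM replicates 2 and 3 (0.0592 to 0.139). The dimmer probe set was higher at 10 uM than at 1 uM by 0.18, where the brighter one stood at -0.13, so the order of the doses depends on the probe set.

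Fasn, the synthase that builds palmitate, read 7.64, 7.69 and 7.69 untreated and 7.96, 7.87 and 7.94 at 10 uM, a difference of 0.25 ± 0.08 (adjusted p = 0.144). Me1, the malic enzyme that supplies NADPH, read 9.47, 9.46 and 9.44 untreated and 9.65, 9.74 and 9.69 at 10 uM, a difference of 0.23 ± 0.07 (adjusted p = 0.17). On these probe sets the 10 uM arrays lay above all others in both genes. A second probe set of Me1 gave a difference of -0.01 between the doses, beside 0.09 for the brightest, and its 1 uM and 10 uM arrays overlapped, so the order of the doses depends on the probe set. Acly, which makes cytosolic acetyl-CoA, had means of 7.90 untreated, 7.95 with PDGF-AB, 7.73 at 1 uM and 7.90 at 10 uM. The elongases Elovl5 and Elovl6 had differences of at most 0.25 in size in any comparison and no call.

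At 10 uM against untreated, 0 of 10 fatty acid genes passed in limma, and 6 had an unadjusted p under 0.05 (Fasn, Acaca, Scd2, Fads1, Fads2 and Me1). Over all genes 1.88% passed and 11.4% had an unadjusted p under 0.05. All 10 lay above 0, as did 52.2% of all genes, with a median of 0.21 against 0.01. In 7 of 10 (70.0%) the groups did not overlap, against the 9.78% given above. With dim genes left out of the test, Fasn, Fads2 and Me1 passed. With a variance trend on intensity and robust moderation, Scd2 and Fads1 passed too. At 1 uM the branch median was 0.03, with 1 gene lower and 0 higher by the test, against 1.33% and 1.88% of all genes. Groups lay apart downward in 3 and upward in 4, against 10.2% and 10.1% of all genes. Between the doses 1 passed as higher and 0 as lower, against 0.196% and 0.181% of all genes. There 9 lay above 0, as did 55.1% of all genes, and the median was 0.18 against 0.02. The arrays of the doses lay apart upward in 8 of 10 (80.0%) and downward in 1 (10.0%), against 8.88% and 7.03% of all genes. With PDGF-AB, 2 of 10 (Fads1 and Fads2) were lower than at 10 uM, where 3.42% of all genes were called either way. The branch median there was -0.15, and groups lay apart downward in 6 of 10 (60.0%), against 9.59% of all genes. With PDGF-AB, 1 (Scd2) was higher and 2 (Acaca and Fads2) were lower than at 1 uM, beside 2.28% and 2.93% of all genes. In the comparison with 1 uM, groups lay apart upward in 3 and downward in 3, against 11.4% and 10.4% of all genes. With PDGF-AB against untreated the median was 0.01, and -0.01 after each array was centred on its median. Groups lay apart upward in 2 of 10 and downward in 2 of 10 (20.0% each), against 6.74% and 6.61% of all genes.

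Transcripts of the regulators were not called in any of the 6 comparisons in limma, and at most 2 of the 3 had an unadjusted p under 0.05 in any of them. Srebf2 read 7.74, 7.57 and 7.67 untreated, 7.77, 7.57 and 7.65 with PDGF-AB, 7.53, 7.39 and 7.47 at 1 uM and 7.81, 7.77 and 7.78 at 10 uM. The 1 uM arrays lay below and the 10 uM arrays above all others. The difference between the doses was 0.33 ± 0.09 (adjusted p = 0.175), and that of 1 uM against untreated -0.20 ± 0.09 (adjusted p = 0.322). The difference between the doses passed with a variance trend on intensity and robust moderation. Srebf1 had means of 6.63 untreated, 6.85 with PDGF-AB, 6.64 at 1 uM and 6.84 at 10 uM. Lpin1, a phosphatidate phosphatase that also represses SREBP in the nucleus, had means of 5.36, 5.23, 5.30 and 5.42 in the same order. Of 11 measured genes of SREBP processing, 0 rose and 1 was lower in 1 of the 6 comparisons. Over all genes 7.01% were called in at least 1 comparison. The gene was Erlin1, which takes part in degrading sterol-regulated proteins. It was lower with PDGF-AB than at 1 uM by -0.51 ± 0.12 (adjusted p = 0.0292), and the call ended without PDGF-AB replicates 1 or 3 or AG1296 1 uM replicate 2 (0.0861 to 0.138). Scap had differences from untreated of 0.05 to 0.14 and Insig2 of -0.27 to -0.05, with no call.

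Outside synthesis, Ch25h changed more against untreated than any gene of the set. It makes 25-hydroxycholesterol, an oxysterol known to hold back SREBP processing. It read 5.99, 5.87 and 5.86 untreated, 6.34, 6.49 and 6.69 with PDGF-AB, 4.72, 4.99 and 4.84 at 1 uM and 4.54, 4.33 and 4.54 at 10 uM. The groups did not overlap, with PDGF-AB above and both AG1296 doses below untreated. Ch25h rose by 0.60 ± 0.11 with PDGF-AB (adjusted p = 0.0361) and fell by 1.06 at 1 uM (adjusted p = 7.06e-05), and it fell by 1.44 at 10 uM (adjusted p = 2.01e-05). The rise was lost without any untreated array, PDGF-AB replicates 2 or 3, AG1296 1 uM replicate 3 or AG1296 10 uM replicate 1 (0.0563 to 0.159). It was also lost when all probe sets were tested, after median centring, with the replicate number as a block and with only the 6 arrays compared (0.0561 to 0.191), while both falls held under all 20 alternatives. The Ch25h difference between the 2 doses, -0.38 ± 0.11, did not pass (adjusted p = 0.239). A link between Ch25h and the sterol genes was not tested. Of the 11 measured LXR and oxysterol genes, the only other call was Cyp27a1, which hydroxylates cholesterol in mitochondria and was lower with PDGF-AB than at 1 uM by -0.56 ± 0.12 (adjusted p = 0.0142). It was lost without PDGF-AB replicate 2 or AG1296 1 uM replicate 2 (0.0527 to 0.074).

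Vldlr, a lipoprotein receptor, read 5.67, 5.58 and 5.52 untreated, 5.83, 5.43 and 5.35 with PDGF-AB, 6.35, 6.19 and 6.08 at 1 uM and 5.71, 5.82 and 5.50 at 10 uM. The 1 uM arrays stood above all others. It rose by 0.61 ± 0.13 at 1 uM against untreated (adjusted p = 0.0181), a call lost without untreated replicates 2 or 3 or AG1296 1 uM replicates 1 or 2 (0.0601 to 0.0977). Vldlr was also lower with PDGF-AB than at 1 uM, a call that held under all 20 alternatives (limma, adjusted p up to 0.0412). Of 11 uptake and transport genes, Vldlr was the only one called against untreated, where 1.88% of all genes were called higher at 1 uM. Stard3 and Gramd1a, which move cholesterol between membranes, were higher with PDGF-AB than at 1 uM by 0.35 and 0.45 (adjusted p = 0.044 and 0.0319). Stard3 lost its call without any of 10 arrays (all but untreated replicates 1 and 3), and Gramd1a without any PDGF-AB array or AG1296 1 uM replicates 1 or 3 (up to 0.156 and 0.127).

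**Figure D5:**
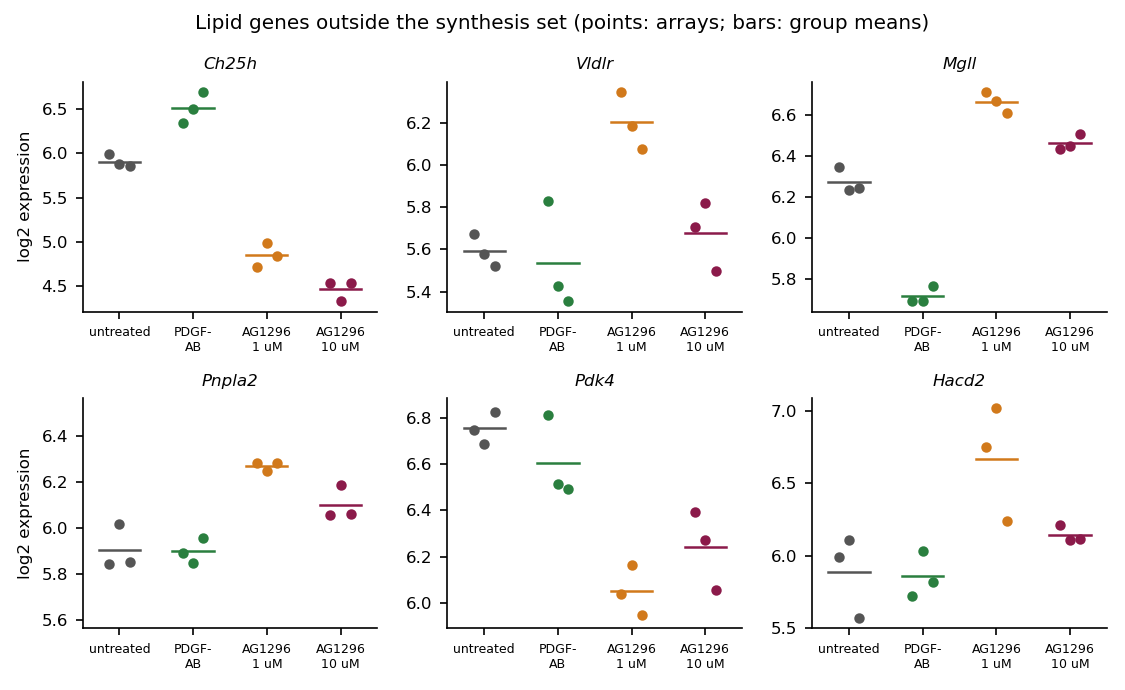
Log2 expression of 6 lipid genes that are not part of the synthesis set, by group; points are the 3 arrays in replicate order and bars are group means, with each panel on its own range of at least 1 log2 unit. Ch25h and Pdk4 lie below untreated at both AG1296 doses, Vldlr is highest at 1 uM, and Mgll is lowest with PDGF-AB.

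Among 16 measured genes of glycerolipid synthesis and storage, 3 were called in at least 1 comparison, against 7.01% of all genes. Of the 3, 2 encode lipases. Mgll, which releases fatty acids from monoglycerides, read 6.35, 6.23 and 6.25 untreated, 5.69, 5.69 and 5.77 with PDGF-AB, 6.71, 6.67 and 6.61 at 1 uM and 6.43, 6.45 and 6.51 at 10 uM. It fell by 0.56 ± 0.08 with PDGF-AB (adjusted p = 0.0073) and rose by 0.39 ± 0.08 at 1 uM (adjusted p = 0.0125). The fall ended without untreated replicate 1 (0.052). The rise ended without untreated replicates 2 or 3 or AG1296 1 uM replicates 1 or 2 (up to 0.0723). With only the 6 arrays compared, both the fall and the rise ended (0.124 and 0.0515). Mgll was also lower with PDGF-AB than at 1 uM and than at 10 uM. Both of these calls held under all 20 alternatives (limma, adjusted p up to 0.000386 and 0.0026). Pnpla2, the lipase that opens triglyceride breakdown, rose by 0.37 ± 0.08 at 1 uM (adjusted p = 0.0271). This was lost without untreated replicates 1 or 3 or any 1 uM array (up to 0.117). Plin2, a coat protein of lipid droplets, was higher with PDGF-AB than at 1 uM by 0.38 (adjusted p = 0.0466), a call lost without any of 10 arrays, all but PDGF-AB replicate 2 and AG1296 1 uM replicate 3 (up to 0.208).

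Of 26 other genes of fatty acid synthesis and elongation, 1 rose and 1 fell at 1 uM, against 1.88% and 1.33% of all genes. Hacd2, a dehydratase of the elongation cycle, rose by 0.78 ± 0.18 (adjusted p = 0.0282), with 6.75, 7.02 and 6.24 against 5.99, 6.11 and 5.57 in untreated cells. Pgd, which supplies NADPH, fell by 0.35 ± 0.09 (adjusted p = 0.0481). Hacd2 lost its call without untreated replicates 1 or 3 or AG1296 1 uM replicates 1 or 2 (up to 0.126), and with the mean of its probe sets. Pgd lost its call without any of 10 arrays, all but PDGF-AB replicate 1 and AG1296 10 uM replicate 2 (up to 0.179). Of 19 genes of fatty acid oxidation, Pdk4, a kinase that inhibits pyruvate dehydrogenase, fell by 0.71 ± 0.11 at 1 uM (adjusted p = 0.00252) and by 0.52 at 10 uM (adjusted p = 0.0318). The first of these held under all 20 alternatives. The second ended without any untreated array, AG1296 10 uM replicates 2 or 3 or AG1296 1 uM replicate 1 (up to 0.14). Pdk4 was also higher with PDGF-AB than at 1 uM, under all 20 alternatives (limma, adjusted p up to 0.0438). Acadm and Acaa2, enzymes of beta-oxidation, were higher with PDGF-AB than at 1 uM by 0.33 and 0.36 (adjusted p = 0.0323 and 0.0479). With Pdk4 these made 3 of 19 genes called higher in that comparison, against 2.28% of all genes. Acadm lost its call when any PDGF-AB or 1 uM array was left out (up to 0.137), and Acaa2 without any array but AG1296 10 uM replicate 3 (up to 0.186). Of 13 genes of the isoprenoid branch and 5 other genes of sterol synthesis, none was called in any of the 6 comparisons in limma, and at most 3 and 1 of them had an unadjusted p under 0.05 in any comparison.

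Markers of other cell types were read beside these results. The mean of 10 fibroblast markers was 8.85 to 8.90 in untreated arrays and 8.91 to 9.01 with PDGF-AB. It was 9.21 to 9.26 at 1 uM and 9.02 to 9.06 at 10 uM, so all treated arrays lay above the untreated ones. Single fibroblast markers went both ways at 1 uM against untreated, with 6 above and 4 below 0 and a range of -0.91 to 1.91. Lum and Dcn, matrix proteoglycans, rose most, from means of 2.49 to 4.40 and 7.64 to 9.35 at 1 uM. Lum had means of 2.57 with PDGF-AB and 2.43 at 10 uM, and outside the 1 uM group it lay below the array medians. The collagens Col1a1 and Col3a1 rose by 0.51 and 0.37. Pdgfra, the receptor used in the sort, fell from 9.42 to 8.51, and Thy1 and Ddr2 were called only as higher with PDGF-AB than at 1 uM (0.41 and 0.33). The part of these markers in the results was not tested. The mean of 7 adipocyte markers was 3.74 to 3.94 untreated, 3.87 to 3.94 with PDGF-AB, 3.62 to 3.77 at 1 uM and 3.79 to 3.84 at 10 uM, and Adipoq, Cidec, Fabp4 and Lep lay below every array median on all 12 arrays. Of 6 endothelial markers, 5 lay below every array median, Pecam1 among them, and the list mean was 2.95 to 3.17 over all arrays. Of 6 leukocyte markers 3 lay there, Ptprc among them, with list means from 3.46 to 3.70. Of 6 cardiomyocyte markers 3 did, Myh6 among them, with list means from 3.98 to 4.28. Other markers were brighter and lay above the array medians on all 12 arrays. Lyz2 of the leukocyte list read 5.03 to 6.43, Tnnt2 of the cardiomyocyte list 6.69 to 7.32 and Pparg of the adipocyte list 4.90 to 6.17. The mean of 9 genes of dividing cells was 7.07 to 7.16 untreated and 6.99 to 7.17 at 1 uM, which overlap. Single markers of these lists were called too. Tek, an endothelial receptor, had means of 3.52 untreated and 4.25 at 1 uM (limma, adjusted p = 0.000761). With PDGF-AB, Lyz2 was lower than at 10 uM and 1 uM, by -1.02 and -0.79. Pparg was higher with PDGF-AB than at 10 uM and 1 uM by 0.70 and 0.90, and Tnnt2 by 0.46 and 0.38. Their part in the results was not tested either. In bulk cultures, fewer cells of a type and less RNA per cell cannot be told apart.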

How the data were processed

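Total RNA of 12 samples was hybridised to 1-colour mouse arrays, with 100 ng labelled per the labels' protocols. The authors deposited a table of log2 values per probe set, made with RMA and limma per the submitters' processing notes, with no versions or settings stated. The base of the logarithm was inferred from how the values range. Of 28853 probe sets, 21789 had 1 symbol in the platform annotation and gave 19938 genes, with the brightest of several probe sets kept. No further normalization or filter was applied.

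All 12 arrays entered 1 fit in limma 3.58.1 (R 4.3.3), with a mean per group and empirical Bayes moderation (prior degrees of freedom 5.35, residual 8). The 6 pairwise comparisons were two-sided, and a moderated F test compared the 4 groups. Calls were made at an adjusted p (Benjamini-Hochberg, over all genes) under 0.05. Errors are standard errors from the fit with n = 3 arrays a group, whose number limits the precision. Simulated data were used to test the fit. Alternatives were the mean of a gene's probe sets, all probe sets, leaving out dim genes, quantile normalization, median centring, an intensity trend with robust moderation, a replicate block, only the 6 arrays compared, and each array left out.

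The text names every gene of the set and, from each other list, up to 4 genes called in at least 1 comparison, plus Scap and Insig2. The members and lists were chosen with earlier results of these data known. Deviations from the group means correlated at -0.031 to 0.298 between same-numbered arrays of different groups, above 0.1 in 9 of 18 pairs. All 12 arrays had a higher mean correlation with arrays of their own number. The design names no pairs, so the main fit did not use the numbers. A fit with the number as a block is given below. Figures were drawn with matplotlib.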

Additional observations from a re-analysis of the deposited data

How the results depend on the processing

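All 16 calls of genes of the set kept their sign under each of the 20 alternatives, and 3 kept the call under all: Hmgcs1 at AG1296 1 uM against untreated, Fads2 between PDGF-AB and 10 uM, and Scd2 between PDGF-AB and 1 uM. The 28 calls of other lipid genes kept their sign too, and 9 kept the call under all. These were Ch25h at each dose against untreated, and Ch25h and Mgll with PDGF-AB against each dose. The rest of the 9 were Pdk4 at 1 uM against untreated, and Pdk4 and Vldlr with PDGF-AB against 1 uM. Some of the other calls were also lost under settings other than leaving out an array. With PDGF-AB against 1 uM, Stard3, Plin2 and Acaa2 were each lost under 4 of these. Acadm and Gramd1a were each lost under 2 there, and Cyp27a1 and Erlin1 under 1. At 1 uM against untreated, Pgd was lost under 5 and Pnpla2 and Hacd2 under 2. At 10 uM against untreated, Pdk4 was lost under 1. The number of genes called depended on the setting. With dim genes left out it went from 0 to 3 for AG1296 10 uM against untreated, from 3 to 8 for 1 uM against untreated, from 5 to 8 for PDGF-AB against 1 uM and from 6 to 12 for the F test. With an intensity trend and robust moderation these became 5 and 7 for the doses against untreated, 8 between the doses, 8 for PDGF-AB against 10 uM and 16 for the F test. With only the 6 arrays compared, 0 remained of 4 between the doses, 1 of 4 for PDGF-AB against 10 uM and 2 of 5 for PDGF-AB against 1 uM, with fewer residual degrees of freedom. Testing all probe sets gave 2 between the doses. Median centring gave 2 there, with Fdps and Nsdhl lost, and 3 for PDGF-AB against 1 uM, with Acaca and Hsd17b7 lost, and it ended the call of Insig1 between PDGF-AB and 10 uM (adjusted p = 0.0504), and quantile normalization gave 10 for the F test; the cause was not tested.

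Leaving out 1 array gave 1 to 4 calls for 1 uM against untreated, 0 to 3 between the doses, 1 to 5 for PDGF-AB against 10 uM, 1 to 7 for PDGF-AB against 1 uM and 3 to 7 for the F test. Branch medians kept their sign except those of fatty acid genes near 0: with PDGF-AB against untreated, 0.014, it was -0.011 after median centring and -0.0037 to 0.053 with 1 array left out, and with PDGF-AB against 1 uM, -0.034, it was -0.039 to 0.015 with 1 array left out. The sterol median ranged from -0.26 to -0.16 at 1 uM and from 0.26 to 0.36 between the doses, and was 0.14 for PDGF-AB against 1 uM after quantile normalization.

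The replicate number as a block left 3 of the 4 calls between the doses, with Nsdhl lost (adjusted p = 0.0582), and Insig1 was lost between PDGF-AB and 10 uM (adjusted p = 0.0576). Msmo1 was gained in that comparison and Scd1 between PDGF-AB and 1 uM, so that 4 and 6 genes were called there, 3 at 1 uM against untreated and 7 in the F test. Each of the 12 arrays had a higher mean correlation with arrays of its own number than with the others, a hint from the data and not from the design.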
